A study of Mus musculus with 12 samples.

Results

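The Gimap genes of mouse chromosome 6 encode GTPases of immunity-associated proteins. Gimap8, Gimap9, Gimap4, Gimap6, Gimap7, Gimap1, Gimap5 and Gimap3, in the order of their probes along the chromosome, are the 8 genes described here, and they were taken as the probes that bear these names in the array design. They are 8 of the 30119 gene names on the array and 8 of the 17901 genes tested, and they were selected on their measured signal in ko against wt GMP, so that comparison is given for them as a description, without a test. RNA was measured on 12 one-colour arrays of sorted granulocyte-monocyte progenitors (GMP), which give rise to neutrophils and monocytes in bone marrow. The ko GMP (Runx1fl/fl-Tg(vav-Cre), 4 arrays) had floxed alleles of Runx1, the gene of a blood transcription factor, and a Cre recombinase driven in blood cells by the vav promoter. The wt GMP (Runx1+/+-Tg(vav-Cre), 4 arrays) had the same transgene and intact Runx1 alleles. The other groups, RUNX1-ERt2 and ERt2 (2 arrays each), were both ko marrow taken on day 3 after 150 mg/kg of 5-fluorouracil, a cytostatic drug, and infected with a MIG retrovirus that carries GFP. RUNX1-ERt2 is RUNX1 fused to a tamoxifen-responsive domain, and ERt2 is that domain alone. The cells grew for 6 weeks in lethally irradiated mice, which may keep some host cells, before tamoxifen (49.5 µg/g on 3 days), and viable GFP-positive GMP were sorted 24 h later. The protocol names tamoxifen for a part of the mice and the sample labels name it for all 4 transplanted samples; the sample labels are followed here. The labels give no age or strain.

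GIMAP proteins share a guanine nucleotide-binding domain of the AIG1 type, and several sit on intracellular membranes through a hydrophobic tail. They are known mainly from lymphocytes, where members differ in whether they favour survival or death of the cell, and some have been linked to proteins of the Bcl-2 family. The genes lie side by side, as a family does that arose by gene duplication, so related transcripts can share sequence.

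On each array 53.5% to 63.1% of the 39429 probes were well above background, and no spot was saturated. The median processed signal was 65.4 to 98.6 on the ko and wt arrays and 43.1 to 59.7 on the RUNX1-ERt2 and ERt2 arrays. Slides 1 and 2 each held 2 ko and 2 wt arrays, whereas RUNX1-ERt2 and ERt2 each lay on a slide of their own, so for these groups slide and construct cannot be told apart. The number of arrays limits the precision. Whether replicate arrays stand for different mice is not stated in the labels, so the spread behind the p-values may be technical. Mpo, the gene of a granule enzyme that marks GMP, lay between 7.26 and 8.39 on all arrays, on a log2 scale on which 0 is the 75th percentile of the array. Every level below is on that scale. The Runx1 signal was 2.87 to 4.20 in ko and 1.18 to 2.23 in wt GMP, and 1.92 to 2.33 in RUNX1-ERt2 and 3.14 to 3.29 in ERt2 GMP. Since the position of its probe with respect to the floxed exons is unknown here, this signal does not check the deletion. It was lower, not higher, on the arrays labelled RUNX1-ERt2 than on those labelled ERt2, so it does not show the added RUNX1, and whether the probe reads the transcript of the construct is unknown here.

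The 10 member probes, 3 of them for Gimap4, spanned 103.7 kb (chr6:48610775-48714522, mm9). The probes of Gimap6 and Gimap3 lay on the minus strand and the rest on the plus strand; exon and UTR annotation of this build was not used here. All 8 genes passed the filter on dim probes, which a gene passed when all arrays of 1 group or more were well above background, and 6 were well above background on all 12 arrays. Gimap7 was not well above background on wt replicate 3 or on any transplanted array, and Gimap3 was not on ERt2 replicate 2.

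The family likeness is visible in the probes themselves. The probe of Gimap9 (chr6:48627839-48627898, mm9, plus strand) and the dimmest probe of Gimap4 (chr6:48640752-48640811, mm9, plus strand) are shown because they are the most alike of 45 pairs of member probes.
Gimap9: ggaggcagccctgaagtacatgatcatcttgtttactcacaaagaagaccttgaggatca
Gimap4: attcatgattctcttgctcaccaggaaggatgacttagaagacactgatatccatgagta
They matched at 27 of 45 overlapping bases, the next pair, Gimap9 and Gimap7, matched at 56.6% of its overlap, and all other pairs were at or below 47.6%. Signal from one member on the probe of another was not tested.

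RUNX proteins bind DNA at a short sequence, and the upstream windows of the members that hold it are shown because the groups differ in Runx1. The 250 bases before the transcript start were read for 9 windows of the 8 genes (RefSeq, GRCm38.p6; Gimap8 has 2 windows), and TGTGGT or TGCGGT was searched on both strands. The motifs do not overlap in these windows. A match was found in 4 of 9 windows, once in each. They belong to Gimap9 (chr6:48675885-48676134), Gimap4 (chr6:48684328-48684577), Gimap7 (chr6:48718371-48718620) and Gimap1 (chr6:48738797-48739046), all on the plus strand. Each is printed 5′ to 3′ along its gene, with the match in capitals.
Gimap9: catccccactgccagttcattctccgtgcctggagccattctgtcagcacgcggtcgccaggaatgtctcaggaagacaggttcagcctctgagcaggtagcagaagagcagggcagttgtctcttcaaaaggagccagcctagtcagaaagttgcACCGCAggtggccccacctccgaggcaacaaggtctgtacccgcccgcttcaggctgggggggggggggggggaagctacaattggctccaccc
Gimap4: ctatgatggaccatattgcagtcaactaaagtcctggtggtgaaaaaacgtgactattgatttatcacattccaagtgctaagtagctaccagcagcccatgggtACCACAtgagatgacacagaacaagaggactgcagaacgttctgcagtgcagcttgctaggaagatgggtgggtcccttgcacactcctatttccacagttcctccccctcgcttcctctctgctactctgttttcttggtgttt
Gimap7: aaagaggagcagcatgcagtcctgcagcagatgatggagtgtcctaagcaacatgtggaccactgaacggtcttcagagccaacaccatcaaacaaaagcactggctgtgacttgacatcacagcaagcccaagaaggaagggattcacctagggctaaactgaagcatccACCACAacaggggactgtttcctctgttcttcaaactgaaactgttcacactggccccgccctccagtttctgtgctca
Gimap1: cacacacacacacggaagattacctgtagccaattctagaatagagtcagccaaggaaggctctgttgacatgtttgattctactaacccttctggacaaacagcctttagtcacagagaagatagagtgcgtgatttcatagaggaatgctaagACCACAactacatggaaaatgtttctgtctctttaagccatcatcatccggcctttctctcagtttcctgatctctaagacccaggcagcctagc
In all 4 windows the match is on the strand opposite to the gene, TGCGGT in Gimap9 and TGTGGT in the other 3, and it begins 94, 145, 79 and 95 bases before the start of Gimap9, Gimap4, Gimap7 and Gimap1. Of all 32851 windows of this length, 14.0% held TGTGGT, 5.10% held TGCGGT and 18.6% held either. A match is letters only. The genes with a match were Gimap9, Gimap4, Gimap7 and Gimap1, with ko minus wt differences of 0.97, 1.99, 0.46 and 1.38, and those without were Gimap8, Gimap6, Gimap5 and Gimap3, with 2.22, 1.43, 1.22 and 1.17.

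In ko GMP the Gimap signal was higher than in wt GMP across most of the cluster, by about the same amount on both slides for Gimap8 and by unlike amounts for Gimap3. The median difference of the 8 members was 1.30 on the log2 scale, beside −0.05 over all genes tested. In 6 of 8 members all ko arrays lay above all wt arrays, beside 10.1% of all genes; limma called 25.3% of all genes, 11.5% higher in ko and 13.8% lower. Since the members were chosen for this comparison, these numbers describe the choice. In bulk RNA, fewer cells of a type and less RNA per cell cannot be told apart. The order of the group means put ko first in 7 of 8 members, Gimap9 being the exception. The plot of levels by array shows all 12 values of each gene.

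**Figure D1:**
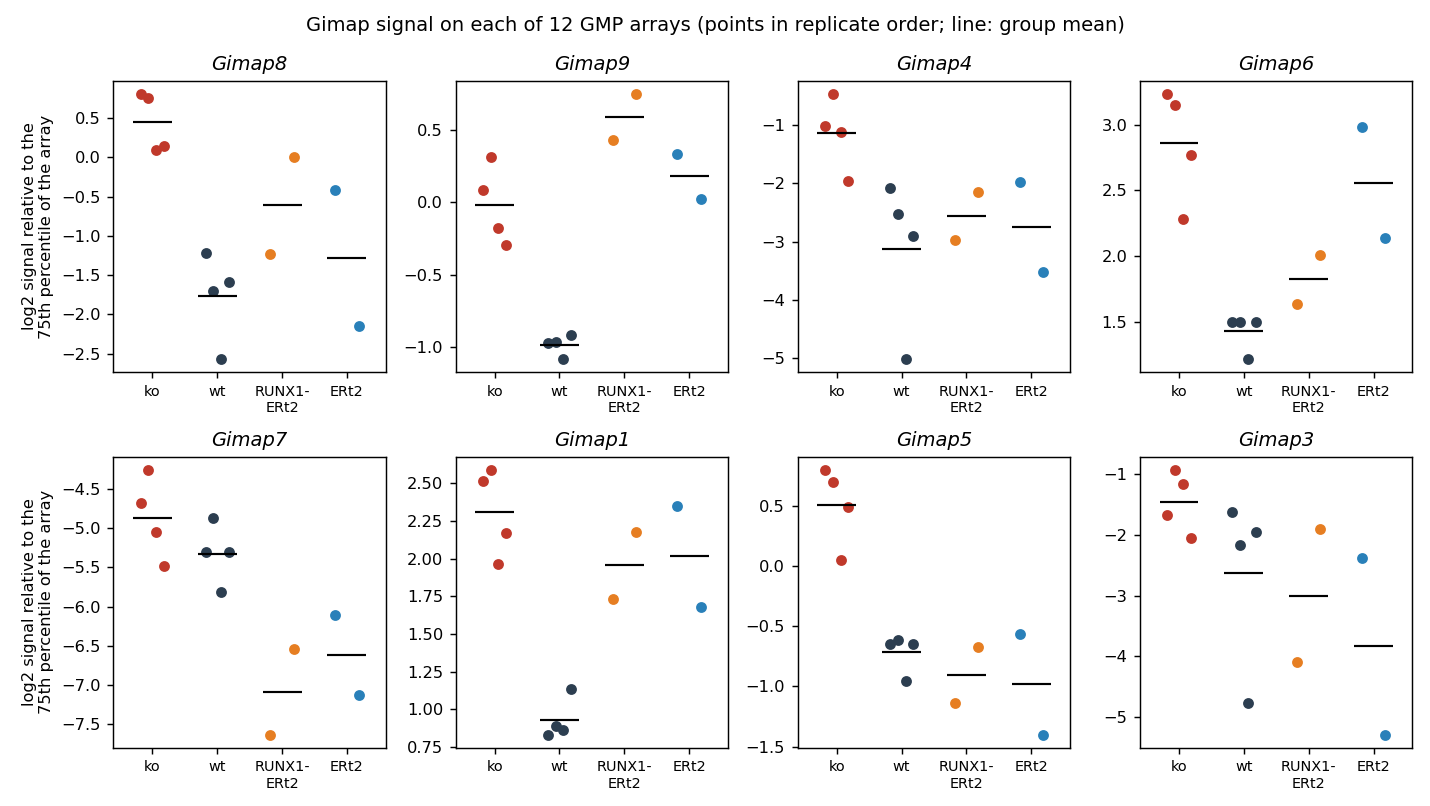
Signal of the 8 Gimap genes on each array, on a log2 scale with 0 at the 75th percentile of the array, with a panel and a vertical scale for each gene. Points are arrays in replicate order for ko, wt, RUNX1-ERt2 and ERt2, and the line is the group mean. The ko points lie above every wt point in 6 panels, Gimap7 and Gimap3 being the exceptions.

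Gimap5, Gimap1 and Gimap3 are known from mice to favour the survival of lymphocytes. Gimap5, whose loss in mice and rats leaves few peripheral T cells, had levels of 0.79, 0.69, 0.05 and 0.48 in ko GMP, against −0.65, −0.61, −0.96 and −0.65 in wt GMP. Its RUNX1-ERt2 levels were −1.13 and −0.68, and its ERt2 levels were −0.56 and −1.40. The ko arrays stood apart from all others, and the remaining groups overlapped, with wt replicate 3 lowest among the wt arrays. The ko minus wt difference was 1.22 ± 0.20 (SE; 2.34-fold), with 1.38 on slide 1 and 1.07 on slide 2.

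Gimap1, which mature T and B cells of mice need, had 2.52, 2.59, 1.96 and 2.17 in ko GMP, against 0.83, 0.89, 0.86 and 1.14 in wt GMP. It had 1.73 and 2.18 in RUNX1-ERt2 GMP and 2.35 and 1.68 in ERt2 GMP. Here wt was the group that stood apart, below both transplanted groups and ko, which overlapped one another. The difference of ko from wt was 1.38 ± 0.19 (SE; 2.60-fold), with 1.69 and 1.07 on slides 1 and 2.

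Gimap3, a close relative of Gimap5 that also acts on the inheritance of mitochondrial DNA in mouse blood cells, behaved otherwise. Its levels were −1.68, −0.93, −1.16 and −2.06 in ko GMP, against −1.62, −2.16, −4.77 and −1.95 in wt GMP. The transplanted arrays gave −4.09 and −1.91 with RUNX1-ERt2 and −2.37 and −5.29 with ERt2. The groups overlapped, except that both ERt2 arrays lay below every ko array. In each of wt, RUNX1-ERt2 and ERt2, 1 array lay far below its partners. The ko minus wt difference of 1.17 ± 0.82 (SE) was 0.58 on slide 1 and 1.75 on slide 2, and it was 0.49 without wt replicate 3.

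Gimap4, which speeds the death of T cells in mice, was measured by 3 probes. The brightest (chr6:48641817-48641876, mm9, plus strand), used to represent the gene, had −1.01, −0.47, −1.12 and −1.95 in ko GMP, against −2.08, −2.53, −5.01 and −2.91 in wt GMP. It gave −2.96 and −2.15 in RUNX1-ERt2 GMP and −1.97 and −3.51 in ERt2 GMP. All ko arrays lay above all other arrays, though ko replicate 4 and ERt2 replicate 1 nearly met, and the remaining groups overlapped. The difference of ko from wt was 1.99 ± 0.51 (SE; 3.98-fold), with 1.57 and 2.42 on slides 1 and 2, and 1.49 without wt replicate 3. The other probes disagreed in size. The probe at chr6:48641312-48641371 gave 0.59 ± 0.15 with all arrays well above background, and the one at chr6:48640752-48640811, well above background on only 1 wt array, gave 1.95 ± 0.66.

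The remaining members have less settled roles. Gimap8, the largest protein of the family with several GTPase domains, had 0.80, 0.76, 0.09 and 0.15 in ko GMP, against −1.22, −1.71, −2.57 and −1.59 in wt GMP. It had −1.23 and 0.00 with RUNX1-ERt2, and −0.42 and −2.15 with ERt2. Its ko arrays lay above all other arrays, and both transplanted groups had 1 array near ko and 1 among the wt values. With 2.22 ± 0.40 (SE; 4.66-fold), 2.24 on slide 1 and 2.20 on slide 2, Gimap8 had the largest ko minus wt difference of the members.

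Gimap6, whose human counterpart binds a protein of the autophagy machinery, had 3.23, 3.15, 2.29 and 2.77 in ko GMP, against 1.497, 1.502, 1.220 and 1.497 in wt GMP. It had 1.64 and 2.01 with RUNX1-ERt2, and 2.98 and 2.14 with ERt2. The ERt2 arrays lay within or just below the ko range, and the RUNX1-ERt2 arrays lay between them and wt without overlap. The ko minus wt difference was 1.43 ± 0.21 (SE; 2.69-fold), with 1.69 and 1.17 on slides 1 and 2.

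Gimap9 had 0.09, 0.31, −0.17 and −0.29 in ko GMP, against −0.97, −0.96, −1.08 and −0.91 in wt GMP. It had 0.43 and 0.75 with RUNX1-ERt2, and 0.34 and 0.02 with ERt2. All transplanted and ko arrays lay above wt, ERt2 overlapped ko, and RUNX1-ERt2 lay above every other array. The ko minus wt difference was 0.97 ± 0.13 (SE; 1.95-fold), with 1.17 and 0.76 on slides 1 and 2.

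Gimap7, whose human counterpart speeds the GTP hydrolysis of its partners when they pair, was near background. It had −4.68, −4.26, −5.05 and −5.48 in ko GMP, against −5.30, −4.87, −5.82 and −5.30 in wt GMP. The RUNX1-ERt2 arrays, at −7.63 and −6.54, and the ERt2 arrays, at −6.11 and −7.12, were not well above background. The ko and wt arrays overlapped, with a difference of 0.46 ± 0.30 (SE; 0.62 and 0.29 on slides 1 and 2), which was −0.36 with normexp background correction.

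The comparison of the arrays labelled RUNX1-ERt2 with those labelled ERt2 addresses RUNX1 restored to ko cells, which the Runx1 signal did not show, and it was not used to choose the members. No member was called. With the limma adjusted p-value (Benjamini and Hochberg over all genes, threshold 0.05), 0 of 8 members were higher, beside 10.2% of all genes, and 0 of 8 were lower, beside 8.87% (19.1% in either direction); at an unadjusted p under 0.05 there were 2 of 8, beside 31.6% of all genes. The members' median difference was 0.13, beside 0.00 over all genes, and it was 0.19 over the 7 members other than Gimap7, which was not well above background in either group; of these 7, 5 were above and 2 below 0. In 2 of 8, Gimap6 and Gimap9, the arrays of the groups did not overlap, as in 29.1% of all genes with RUNX1-ERt2 above and 29.8% with RUNX1-ERt2 below.

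Gimap6 came nearest to the threshold. It averaged 1.82 ± 0.26 in RUNX1-ERt2 GMP and 2.56 ± 0.60 in ERt2 GMP (SD, n = 2 each), a limma difference of −0.74 ± 0.29 (SE; adjusted p = 0.12). The call depended on 1 array, since without ERt2 replicate 2 the difference was −1.16 (limma adjusted p = 0.0319). Gimap9 averaged 0.59 ± 0.22 in RUNX1-ERt2 GMP and 0.18 ± 0.22 in ERt2 GMP (SD, n = 2 each), a limma difference of 0.41 ± 0.18 (SE; adjusted p = 0.15). These are opposite directions, whereas in ko against wt both genes were higher.

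The 3 genes known for lymphocyte survival gave no call. Gimap5 differed by 0.08 (95% interval −0.55 to 0.71, limma adjusted p = 0.89) and Gimap1 by −0.06 (−0.66 to 0.54, adjusted p = 0.91). For Gimap3 the interval was wide, with 0.83 (−1.78 to 3.44, limma adjusted p = 0.69). Gimap4 differed by 0.19 (−1.44 to 1.82, adjusted p = 0.90) and Gimap8 by 0.67 (−0.60 to 1.95, adjusted p = 0.47). Gimap7 was not well above background in either group, so it has no fold there. For Gimap3, Gimap4 and Gimap8 the sign turned without ERt2 replicate 2, at −0.63, −0.58 and −0.19.

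ERt2 and ko GMP share the genotype and differ in transplantation, drug, virus and slide, and both share arrays with the comparisons above, so their values are set side by side without a test. Relative to ko, ERt2 means were lower by more than 1 log2 unit for Gimap3 (−2.37), Gimap8 (−1.74), Gimap4 (−1.60) and Gimap5 (−1.49). ERt2 replicate 2 lowered each of these means. The levels on replicates 1 and 2 were −2.37 and −5.29 for Gimap3 and −0.42 and −2.15 for Gimap8. They were −1.97 and −3.51 for Gimap4 and −0.56 and −1.40 for Gimap5. Gimap3 was not well above background on ERt2 replicate 2. The ERt2 means were near ko for Gimap6 (−0.30), Gimap1 (−0.29) and Gimap9 (0.20). Gimap7 was at least 1.25-fold lower in ERt2 than in ko, the ERt2 arrays giving only a bound. In 5 of 8 members, Gimap7 among them, both ERt2 arrays lay below all ko arrays. The share of all genes that did so was not counted, and the members were chosen on their ko and wt values, so this number only describes the members. The median difference was −0.90 with Gimap7 at its bound and −1.55 with its measured value, beside 0.06 over all genes; without ERt2 replicate 2 the value with the measured Gimap7 was −0.85.

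RUNX1-ERt2 and wt GMP differ in these ways and also in genotype and in the RUNX1 construct. RUNX1-ERt2 means were above wt for Gimap9 (1.57), Gimap8 (1.16), Gimap1 (1.03), Gimap4 (0.58) and Gimap6 (0.39), and below wt for Gimap5 (−0.19) and Gimap3 (−0.38). For Gimap7 the bound was 1.08-fold lower than in wt, but it is not firm, since wt replicate 3 was not well above background either. Gimap9, Gimap1 and Gimap6 were above every wt array on both RUNX1-ERt2 arrays, while Gimap8, Gimap4, Gimap5 and Gimap3 overlapped wt. How many of all genes stood apart in this way was not counted, and the wt values were part of the choice of the members. The median difference was 0.49 with Gimap7 at its bound or at its measured value, beside 0.00 over all genes.

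Single arrays stood low for most members in wt, ERt2 and RUNX1-ERt2 GMP. In wt GMP, replicate 3 was the lowest of 4 arrays for 7 of 8 members, all but Gimap1, beside 23.1% of all genes. In ERt2 GMP, replicate 2 was below replicate 1 for 8 of 8 members, beside 40.7% of all genes. In RUNX1-ERt2 GMP, replicate 1 was below replicate 2 for 8 of 8, beside 46.4% of all genes. The gap to the other arrays of the group was largest for Gimap3 each time. In ko GMP the lowest array was replicate 3 for Gimap8, Gimap6, Gimap1 and Gimap5 and replicate 4 for the other members. No single ko array was shared, but replicates 3 and 4 are the ko arrays of slide 2, which also held wt replicate 3.

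Most tested markers of T and NK cells, which express Gimap genes, were lower on the same arrays. Of 15 tested genes of the T cell list, wt replicate 3 was lowest among wt arrays for 9, ERt2 replicate 2 was below replicate 1 for 9, and RUNX1-ERt2 replicate 1 was below replicate 2 for 15. Of 9 tested genes of the NK cell list the counts were 7, 7 and 8. Other lists were low on the transplanted arrays too: of 10 megakaryocyte genes the counts were 1, 10 and 10, and of 13 stem and early progenitor genes they were 5, 12 and 10. Il2rb, the shared chain of the interleukin 2 and 15 receptors, had −2.66, −1.91, −1.83 and −3.16 in ko GMP, against −1.87, −2.56, −6.32 and −2.48 in wt GMP. It had −5.67 and −2.94 with RUNX1-ERt2, and −3.76 and −6.13 with ERt2, so its ko and wt levels overlapped apart from wt replicate 3. Ncr1, an NK cell receptor, had −4.03, −3.66, −3.96 and −5.26 in ko GMP, against −4.08, −4.37, −8.34 and −5.18 in wt GMP, and was not well above background on wt replicate 3, ERt2 replicate 2 or either RUNX1-ERt2 array. Cd3e, a subunit of the T cell receptor complex, stayed between −1.59 and −0.76 on all arrays, but Cd3d and Cd3g, subunits of the same complex, did not stay level. Cd3d had −5.16 on wt replicate 3, against −3.78 to −2.93 on the other wt arrays, and −4.90 on ERt2 replicate 2. Cd3g was not well above background on wt replicate 3, either ERt2 array or RUNX1-ERt2 replicate 1. Cd8a was not well above background on any array.

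The summed level of the tested T cell genes, in multiples of the 75th percentile, was 7.89 to 13.4 in ko and 5.46 to 7.35 in wt, and 5.57 to 10.3 in RUNX1-ERt2 and 3.59 to 5.28 in ERt2. For the NK cell genes it was 8.17 to 14.1 in ko and 20.3 to 33.4 in wt, and 13.8 to 15.2 in RUNX1-ERt2 and 35.9 to 48.3 in ERt2. These sums are led by their brightest genes, among them Lat and Nkg7, which myeloid or megakaryocytic cells also express. The part of T or NK cells in the Gimap values was not tested. In a setting added after seeing the data, without wt replicate 3 and ERt2 replicate 2, the members' median was 1.29 for ko minus wt. The median was −0.49 for RUNX1-ERt2 minus ERt2, but RUNX1-ERt2 replicate 1, which was also low, was kept. Without RUNX1-ERt2 replicate 1 alone, the median of RUNX1-ERt2 minus ERt2 was 0.44.

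**Figure D2:**
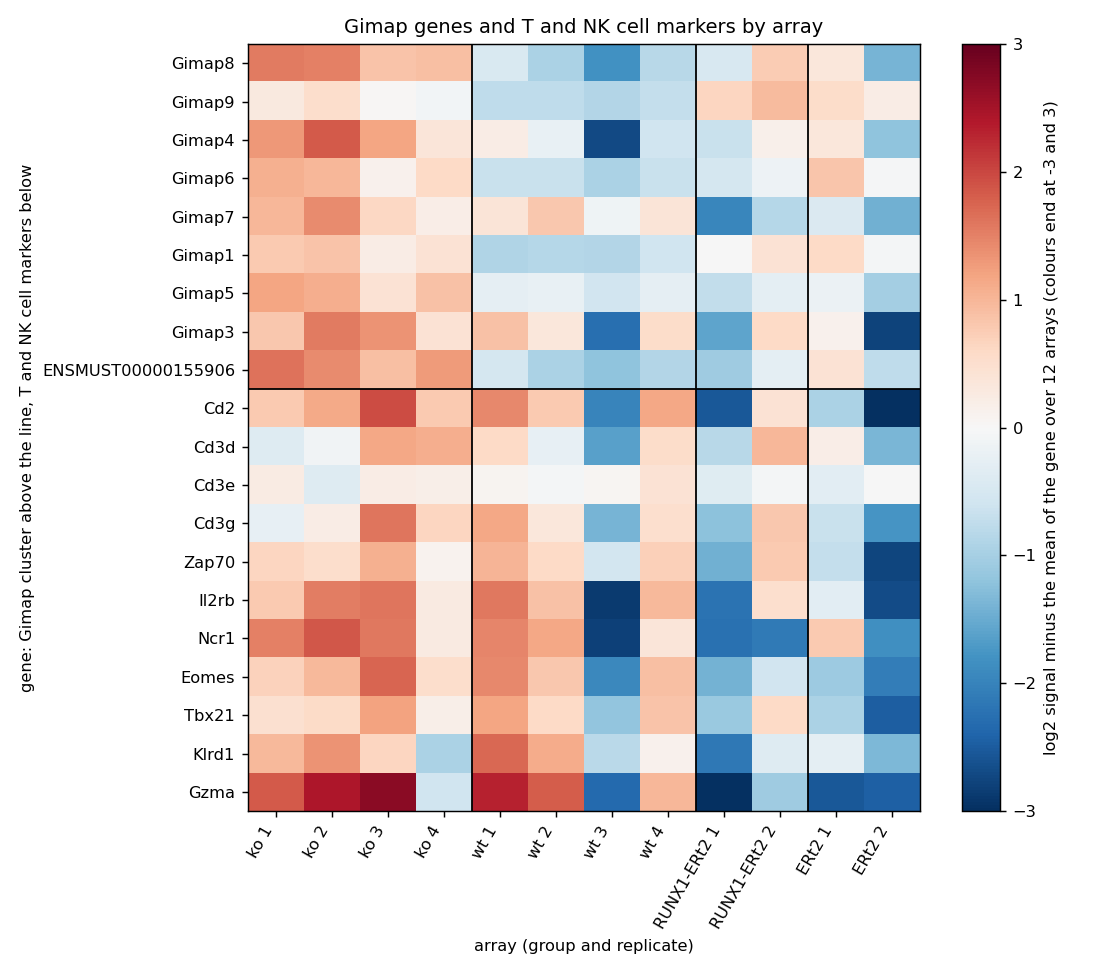
Each row is a gene and each column an array; colour is the log2 signal minus the gene's mean over the 12 arrays, red above and blue below. The Gimap genes and the unnamed transcript of the cluster are above the line, and T and NK cell markers are below it. The columns of wt 3, ERt2 2 and RUNX1-ERt2 1 are blue for Gimap3 and Gimap4 and for most markers drawn. For Gimap1 and Gimap6, ko is red and wt blue, without such a difference in the markers drawn. Not all tested T and NK cell genes are drawn. Lat, Lck and Nkg7, the ones called in ko against wt (differences of 2.52, −1.31 and −1.38), are left out.

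One more transcript was measured inside the cluster, between the probes of Gimap7 and Gimap1. The array design names it ENSMUST00000155906, and no gene name was found for it in the tables used here. Its probe (chr6:48688472-48688531, mm9, minus strand) is shown because the sequence is all that identifies the transcript.
ENSMUST00000155906: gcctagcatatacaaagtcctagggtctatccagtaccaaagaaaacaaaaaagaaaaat
It had −0.55, −0.75, −1.28 and −0.90 in ko GMP, against −2.70, −3.13, −3.38 and −3.06 in wt GMP. It had −3.24 and −2.48 with RUNX1-ERt2, and −1.74 and −2.95 with ERt2. The ko arrays lay above all others, as they did for Gimap5, Gimap8 and the brightest probe of Gimap4, and the difference of ko from wt was 2.20 ± 0.27 (SE; 4.60-fold), with 2.27 on slide 1 and 2.13 on slide 2. RUNX1-ERt2 and ERt2 overlapped, with a difference of −0.51 ± 0.38 (SE; limma adjusted p = 0.41).

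Beyond the cluster the ko minus wt differences did not continue evenly. Of 17 tested genes with a probe within 500 kb of the outermost member probes, 5 rose in ko and 2 fell, beside 11.5% and 13.8% of all genes, with a median of 0.16. The nearest gene before Gimap8, which the array design calls AI854703, at 27.1 kb, rose by 0.75 ± 0.21 (limma adjusted p = 0.0311). The next, Repin1, a zinc finger gene, differed by 0.01 ± 0.08 (limma adjusted p = 0.96), and Lrrc61 by 0.30 ± 0.09 (adjusted p = 0.0387). After Gimap3, at 69.3 and 79.5 kb, the membrane protein genes Tmem176b and Tmem176a differed by 0.24 ± 0.13 (limma adjusted p = 0.19) and 0.43 ± 0.16 (adjusted p = 0.077), and Gm7932 by 0.08 ± 0.15 (adjusted p = 0.75). Farther out, Zfp467, a zinc finger gene at 233 kb, rose by 1.39 ± 0.20 (limma adjusted p = 0.0018) and Aoc1, an amine oxidase gene at 144.6 kb on the other side, fell by 1.74 ± 0.26 (adjusted p = 0.0020). Only 2 of 4 ko arrays measured Aoc1 clearly over background, and its call ended with normexp background correction (−1.06, limma adjusted p = 0.074). Igf2bp3, which encodes an RNA-binding protein, averaged −3.57 ± 3.45 in ko GMP and −7.30 ± 0.74 in wt GMP (SD, n = 4 each; limma adjusted p = 0.0271), and a transcript that the array design calls AI853106 averaged −5.17 ± 1.09 in ko GMP and −6.97 ± 1.15 in wt GMP (SD, n = 4 each; limma adjusted p = 0.0361). In each case 3 of 4 ko arrays and 0 of 4 wt arrays exceeded background clearly, so no fold is given. Malsu1, a gene of mitochondrial ribosome assembly, fell by 0.33 ± 0.09 (limma adjusted p = 0.0316). The calls of Igf2bp3, AI853106 and Malsu1 ended with normexp background correction and on leaving out wt replicate 1 or 2 or ko replicate 1 or 2.

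The calls of AI854703 and Lrrc61 ended at 10 and 13 of 24 other settings, without wt replicate 1, 3 or 4 or without ko replicate 1, 2 or 4 for both of them; with the replicate block the adjusted p of Lrrc61 was 0.0549. In RUNX1-ERt2 against ERt2, 2 of the 17 rose and 1 fell, beside 10.2% and 8.87% of all genes, with a median of −0.20. Zfp467 fell by 1.90 ± 0.29 (limma adjusted p = 0.0019), Aoc1 rose by 1.56 ± 0.37 (adjusted p = 0.0177) and Gm7932 rose by 1.04 ± 0.21 (adjusted p = 0.0088). The calls of Zfp467 in both comparisons held at all 24 other settings. Those of Gm7932 and Aoc1 ended with normexp background correction (limma adjusted p = 0.12 and 0.53), and that of Gm7932 with only the arrays of the groups compared (0.078). They also ended without RUNX1-ERt2 replicate 2 (limma adjusted p = 0.0596 and 0.0859), and also without ERt2 replicate 2 for Gm7932 (0.0583) and without ERt2 replicate 1 (0.114) or RUNX1-ERt2 replicate 1 (0.0614) for Aoc1.

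**Figure D3:**
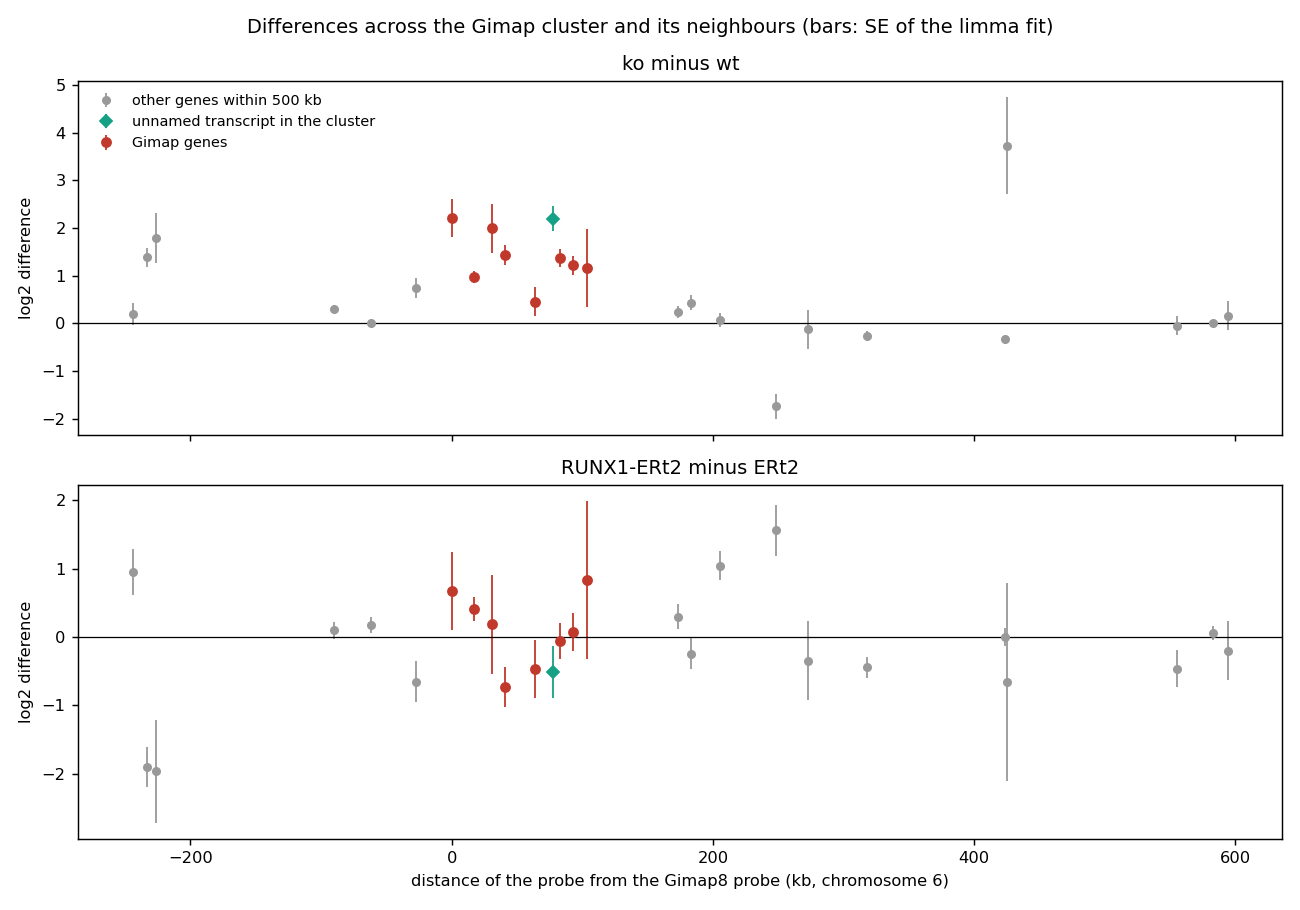
Log2 differences (points) and their SE (bars) of the Gimap genes, of the unnamed transcript among them and of other genes within 500 kb, against the distance of the probe from that of Gimap8. The upper panel is ko minus wt, where the Gimap genes lie between 0.46 and 2.22, and the lower panel is RUNX1-ERt2 minus ERt2, where they lie between −0.74 and 0.83.

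The genes whose pattern over the arrays was most like that of the cluster are given as a description. Likeness was Pearson's r, over the 12 arrays, with the mean of the 8 standardised member profiles, and over the 8 ko and wt arrays after subtracting slide means. The 10 genes elsewhere with the highest r were Ttc28 (0.96; 0.97 over the 8 arrays), Zcchc24 (0.94; 0.95), Bmt2 (0.94; 0.95), Kmt2b (0.93; 0.95), Zbtb4 (0.92; 0.98), Pcmtd2 (0.92; 0.98), Cd274 (0.92; 0.97), Traf1 (0.91; 0.94), Lrif1 (0.91; 0.93) and Gbp9 (0.91; 0.93). The transcript inside the cluster ranked 3 among all genes (0.94; 0.97). The points share the groups, slides and scaling. All 10 genes were higher in ko than in wt, by 0.27 for Kmt2b, which encodes a histone methyltransferase, to 1.93 for Cd274, which encodes the immune checkpoint ligand PD-L1. These genes were picked for likeness to members that were themselves chosen in ko against wt. Their higher level in ko and their r over the 8 arrays largely follow from that choice.

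Genes of the Bcl-2 family, which set the threshold of cell death at the mitochondrion, moved in both directions. Of 16 tested genes of this list, which also holds the chaperone gene Hspa8, 4 rose in ko and 4 fell, with a median of −0.14, beside 11.5% and 13.8% of all genes. Bmf, a pro-death member, rose by 2.05 ± 0.20 (limma adjusted p = 0.00025), and the survival gene Bcl2 fell by 1.64 ± 0.20 (adjusted p = 0.00067), as did the pro-death gene Bok (by 1.64 ± 0.12, adjusted p = 5.9e-05). Bcl2l1, another survival gene, rose by 1.28 ± 0.11 (limma adjusted p = 8.9e-05), and Hspa8 differed by −0.19 ± 0.10 (adjusted p = 0.19); both were named after their values were seen.

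In RUNX1-ERt2 against ERt2, 3 of the 16 rose and 0 fell, with a median of −0.01, beside 10.2% and 8.87% of all genes. All 3 are pro-death genes, but the other pro-death genes tested were not called. Of these, Bax (0.45), Bmf (0.31) and Bcl2l11 (0.05) were higher, and Bid (−0.52), Pmaip1 (−0.26), Bak1 (−0.08) and Bad (−0.06) were lower. Bik was at least 2.28-fold higher (limma adjusted p = 0.0108), since its ERt2 arrays were not well above background. Bbc3 rose by 1.06 ± 0.31 (limma adjusted p = 0.0426) and Bok by 0.65 ± 0.17 (adjusted p = 0.0299). In ko against wt, Bbc3 was higher too (1.11 ± 0.22, limma adjusted p = 0.0071), whereas Bok was lower and Bik was not called. Each of these calls depended on single arrays, that of Bbc3 ended at 15 of 24 other settings, and without ERt2 replicate 2 the adjusted p was 0.0547 for Bik, 0.241 for Bbc3 and 0.0618 for Bok. Bcl2 and Bcl2l1 differed by 0.38 ± 0.28 (limma adjusted p = 0.40) and −0.33 ± 0.15 (adjusted p = 0.17).

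**Figure D4:**
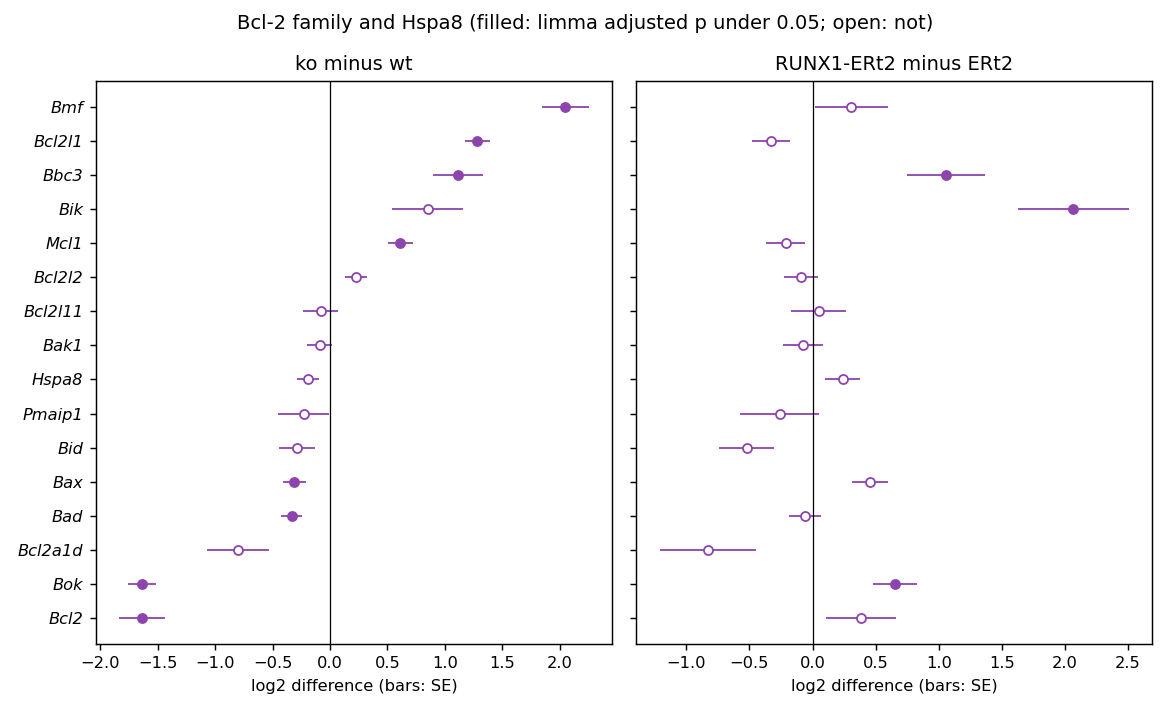
Log2 differences (points) and their SE (bars) of 16 genes of the Bcl-2 family list, in ko minus wt on the left and in RUNX1-ERt2 minus ERt2 on the right, ordered by the difference in ko minus wt. Filled points passed the adjusted p threshold of 0.05; 8 are filled on the left and 3 on the right.

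The other lists give the setting of these values, beside 11.5% of all genes called higher and 13.8% lower in ko. In ko against wt, 1 of 15 tested T cell genes rose and 1 fell (median 0.06), 0 of 9 NK cell genes rose and 1 fell (0.25), 0 of 10 B cell genes rose and 2 fell (−0.37), and 0 of 9 lymphoid progenitor genes rose and 2 fell (−0.33). Lat, an adaptor of T cell receptor and platelet signalling, rose by 2.52 ± 0.29 (limma adjusted p = 0.00049), and the kinase gene Lck fell by 1.31 ± 0.25 (adjusted p = 0.0066). In the same comparison 8 of 13 stem and early progenitor genes rose and 3 fell (0.83), and 6 of 10 megakaryocyte genes rose and 0 fell (1.97). Of 6 endothelium genes 3 rose and 0 fell (0.63), and of 11 GMP genes 1 rose and 5 fell (−0.55). Among the GMP genes, the calls of Mpo, Ctsg, Cd34 and Kit ended at 18, 15, 20 and 10 of 24 other settings. Those of Cebpa and Ms4a3 held at all of them. The call of the endothelium gene Tie1 ended at 10.

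In RUNX1-ERt2 against ERt2, where 10.2% of all genes were called higher and 8.87% lower, the counts were as follows. Of the T cell genes 3 rose and 2 fell (median 0.95), of the NK cell genes 0 rose and 1 fell (0.41), of the B cell genes 2 rose and 2 fell (0.13), and of the lymphoid progenitor genes 0 rose and 2 fell (−0.16). Vpreb1, a surrogate light chain gene of B cell precursors, rose by 5.86 ± 0.45 (limma adjusted p = 3.9e-05). The counts were 1 up and 3 down for stem and early progenitor genes (−0.55), 0 and 1 for megakaryocyte (0.65), 0 and 1 for endothelium (0.13) and 0 and 5 for GMP genes (−0.61).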

How the data were processed

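RNA of sorted mouse GMP was labelled with Cy3 using the Low Input Quick Amp kit and measured on 12 one-colour Agilent arrays, per the labels' protocols. The labels also give the groups and the replicate numbers. The deposited spot intensities are Feature Extraction output from which the software had subtracted background and a spatial trend, per the file headers, which give version 10.7.3.1 where the submitters' processing notes give 9.1, with no normalization between arrays. The authors' series matrix holds a signal that was found to be the processed signal divided by a factor near the array median (column medians 0.91 to 0.94); each of its ko and wt columns matched another replicate of its own group best, and it served as an alternative only.

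After removal of control and flagged spots (129 to 207 an array), replicate spots were averaged, and levels are log2 intensities less the 75th percentile of each array. Gene names for the 39429 probes came from a RefSeq table (GRCm38.p6), 27234 through an accession, 3576 through a symbol and 565 through a synonym, while 8054 kept the file's name; probe coordinates come from the files (mm9). Tests used probes whose arrays in 1 group or more were all well above background, and the probe with the highest mean stood for its gene, which left 17901 genes. Differences and SE come from limma 3.58.1 (lmFit, eBayes) in R 4.3.3, with group means and a slide term for ko and wt over all 12 arrays (7 residual and 2.11 prior degrees of freedom). Adjusted p-values (Benjamini-Hochberg, all genes) had a threshold of 0.05, and the fit was tested on simulated data. Where all arrays of 1 group were dim, the bound sets the bright group's mean against, per dim array, the higher of the lowest signal well above background and the probe's own signal. Figures were drawn with matplotlib 3.10.9.

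Same-numbered ko and wt arrays deviated together (r of 0.37, 0.35, 0.18 and 0.67 over genes). Slide was not removed from these deviations, and same-numbered arrays share a slide, so pairing and slide cannot be told apart here. The labels name no shared animal. The main fit holds a slide term and no pairing, and a replicate block served as an alternative. Named were all members with every probe, genes within 500 kb (the nearest 3 on each side and those that passed), the 10 genes of most similar profile, up to 3 genes of each of 9 lists, and Runx1. The lists are T cell, B cell, NK cell, lymphoid progenitor, stem and early progenitor, megakaryocyte, endothelium, GMP, and Bcl-2 family with Hspa8. The members and lists were chosen with earlier results of these data known. The alternatives were another background correction, scaling, filter, probe choice, slide or replicate term, fewer samples, and leaving out each array.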

Additional observations from a re-analysis of the deposited data

Results flagged for a closer look

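Among the Gimap genes and the unnamed transcript of the cluster, 18 sets of 4 arrays (ko or wt, for each gene) were searched for a single array that stands apart from the others by Dixon's test, which flags about 1 in 20 sets by chance. In Gimap6, wt replicate 3 lay at 1.22 on the log2 scale, and its gap to the nearest wt array was 0.983 of the range of the group. In Gimap5, wt replicate 3 lay at −0.96, with a gap of 0.897 of the range. Both are the same array, which was also the lowest wt array for 7 of 8 members. The ko minus wt differences without it were 1.43 for Gimap6 and 1.19 for Gimap5.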

How the results depend on the processing

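The 0 member calls in RUNX1-ERt2 against ERt2 stayed at 0 at 22 of 24 other settings. There was 1 call without ERt2 replicate 2 (range 0 to 1 on leaving out an array) and 1 without wt replicate 3 and ERt2 replicate 2 together, a setting added after seeing the data; both times it was Gimap6 (limma adjusted p = 0.0319 and 0.0449). The median member difference there was −0.49 to 0.53 on leaving out an array, and −0.49 without those 2 arrays. The ko minus wt median was 1.26 to 1.52 on leaving out an array and 1.18 to 1.41 otherwise. For RUNX1-ERt2 minus wt the median was 0.19 to 0.85 on leaving out an array. The ERt2 minus ko median of −1.55, with the measured Gimap7, was −0.71 with normexp background correction, −0.89 with probes well above background on all 12 arrays and −0.85 without wt replicate 3 and ERt2 replicate 2, and it ran between −2.08 and −0.85 on leaving out an array. Normexp moved the median of all genes to −0.15 in ko minus wt, and array medians in place of the percentile moved it to 0.25 in ERt2 minus ko. List members called in RUNX1-ERt2 against ERt2 numbered 24, against 11 with normexp, 15 with no filter on dim probes, 9 with only the arrays of the groups compared, and 13 to 26 on leaving out an array. With the replicate block in place of the slide term, members called stayed at 0, the medians were 0.13 and 1.30, and list calls were 27 and 39 in RUNX1-ERt2 against ERt2 and ko against wt; calls that the block ended include those of Lrrc61, Cd34, Tie1 and Bax in ko against wt and of Procr in RUNX1-ERt2 against ERt2. With the numbers of the transplanted groups crossed, 0 members and 4199 genes were called, against 3417. Genes called there also numbered 1390 with normexp, 1649 with only the arrays of the groups compared, and 2178 to 3683 on leaving out an array. The 2 comparisons across transplantation have no value with only the arrays of the groups compared.

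Signs turned in RUNX1-ERt2 minus ERt2 for Gimap8, Gimap4, Gimap5, Gimap3 and Gimap1, none of them called. On leaving out an array, Gimap8 ran from −0.19 to 1.54, Gimap4 from −0.58 to 0.96, Gimap5 from −0.34 to 0.50 and Gimap3 from −0.63 to 2.28, each lowest without ERt2 replicate 2, and the lowest values were the same when wt replicate 3 was left out too. Without RUNX1-ERt2 replicate 2, Gimap4 (−0.22), Gimap5 (−0.15) and Gimap3 (−0.26) also turned, as Gimap5 did with the series matrix (−0.011). Gimap1 ran from −0.39 to 0.27 (0.16 without RUNX1-ERt2 replicate 1) and the unnamed transcript ENSMUST00000155906 from −1.12 to 0.089. The measured values of Gimap7, not well above background in either group and so no measure of a difference, ran from −1.02 to 0.075 (0.038 without ERt2 replicate 1). In ko minus wt the neighbour AI853106, called at 1.80 and not well above background on any wt array, was −0.17 with normexp. The causes were not tested.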
